A study of Mus musculus with 4 samples.

Results

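The desmosome is the spot junction that rivets neighbouring keratinocytes together and ties their keratin filaments to the cell border. Its epidermal parts were followed here through 10 genes: 5 desmosomal cadherins (Dsg1a, Dsg1b, Dsg3, Dsc1 and Dsc3), the plakin Dsp, the armadillo proteins Jup, Pkp1 and Pkp3, and the membrane protein gene Perp. The members were taken by gene symbol, with the transcript values of a symbol summed, and all 10 were found among the 45803 symbols of the table. All 10 also passed the filter on low values, which left 13817 genes for testing.

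The RNA came from epidermal keratinocytes of newborn mice at postnatal day 0. The conditional knockout (cKO) group had the genotype K14Cre,Mettl14F/F, in which both Mettl14 alleles are floxed. The control group had the genotype K14Cre,Mettl14F/+, with 1 floxed and 1 wild-type allele, so every library came from mice that carry the Cre transgene. The keratin 14 promoter drives Cre in basal keratinocytes, and cells that arise from these inherit the deletion. There were 2 libraries in each group, numbered 1 and 2 by the labels, which do not state that they came from separate animals. Each p-value thus reflects how far these libraries vary, with spread borrowed from other genes, and not a known spread between animals. Part of that variation may be technical. Mettl14 encodes the partner of the methyltransferase Mettl3 in the complex that places m6A on RNA.

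In a desmosome, desmogleins and desmocollins span the membrane and bind those of the next cell. Their tails hold plakoglobin (Jup) and the plakophilins (Pkp1, Pkp3), which recruit desmoplakin (Dsp), and the far end of desmoplakin grips keratin filaments. In mouse epidermis Dsg3 and Dsc3 are known as the cadherins of the lower layers, and Dsg1 and Dsc1 as those of the upper, differentiated layers. Perp, a tetraspan protein first described as a p53 target, is needed for stable desmosomes in stratified epithelia.

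Levels are given as FPKM, fragments counted per unit of transcript length and of library depth, so values may be compared between genes. The total depth implied by the values was 16887600 to 25670600 reads or fragments per library, and each member rested on 3450 to 149902 of them in each library, a Pkp3 transcript without annotated length not counted. Both libraries numbered 2 were deeper than both numbered 1, and most members differed more between these numbers than between genotypes. In order of control 1, control 2, cKO 1 and cKO 2, Mettl14 measured 7.00, 6.40, 5.89 and 3.79 FPKM. Both cKO values were the lower, but the log2 difference of -0.42 ± 0.26 (SE) did not pass limma's test (adjusted p = 0.959). The value covers the whole gene, and the deleted stretch was not measured on its own, so this is a weak check of the labels. The 6 basal keratinocyte markers (Krt5, Krt14, Krt15, Itga6, Itgb4 and Col17a1) summed to 3736, 4841, 2377 and 3751 FPKM. All 6 were lower in cKO within both numbers, against 37.6% of all genes tested. Of 6 suprabasal markers only Krt1 was listed at 0 in every library. The suprabasal markers summed to 23306, 11645, 19642 and 11859 FPKM. Of the 5 tested 1 was higher and 1 lower in cKO within both numbers, against 31.8% and 37.6% of all genes. Summed levels of 5 endothelial markers were 0.79 to 1.82 FPKM and those of 5 striated muscle markers 0.26 to 1.95 FPKM. In the same order of libraries, the 6 melanocyte markers summed to 516, 445, 397 and 417 FPKM. Of these 5 were lower and 0 higher in cKO within both numbers. The 6 fibroblast markers summed to 116, 114, 84.6 and 92.0 FPKM, with 3 lower and 1 higher. The same shares of all genes apply to both lists. The 5 leukocyte markers summed to 239, 293, 136 and 210 FPKM. All 5 leukocyte markers were lower in both cKO libraries than in both control libraries, which held for 16.6% of all genes tested. The part of these markers in the members' values was not tested.

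The question was whether desmosome RNA had a different level in mice with both Mettl14 alleles floxed than in those with 1. No member was called as different between genotypes. In limma's moderated test on log2(FPKM + 1), adjusted by the Benjamini-Hochberg method over all 13817 genes, 0 of 10 members and 0% of all genes were called at 0.05. This fit leaves out the library number, and in it no member had an unadjusted p under 0.05, against 686 of all genes. The members' adjusted p ran from 0.959 to 0.999. With the library number added to the limma fit, the unadjusted p was 0.0409 for Dsg1a and 0.00685 for Dsg1b. In that fit 3589 of all genes were under 0.05 and 900 were called, but 0 members (smallest adjusted p = 0.0707, Dsg1b). The members' log2 differences, cKO minus control, lay between -0.04 (Dsg3) and 0.38 (Dsg1b). Their median was 0.06, against a median of -0.03 over all genes tested. With 2 libraries a group an exact two-sided permutation test of a single value cannot go below p = 0.333, and limma had 2 residual degrees of freedom before it borrowed spread from other genes.

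**Figure D1:**
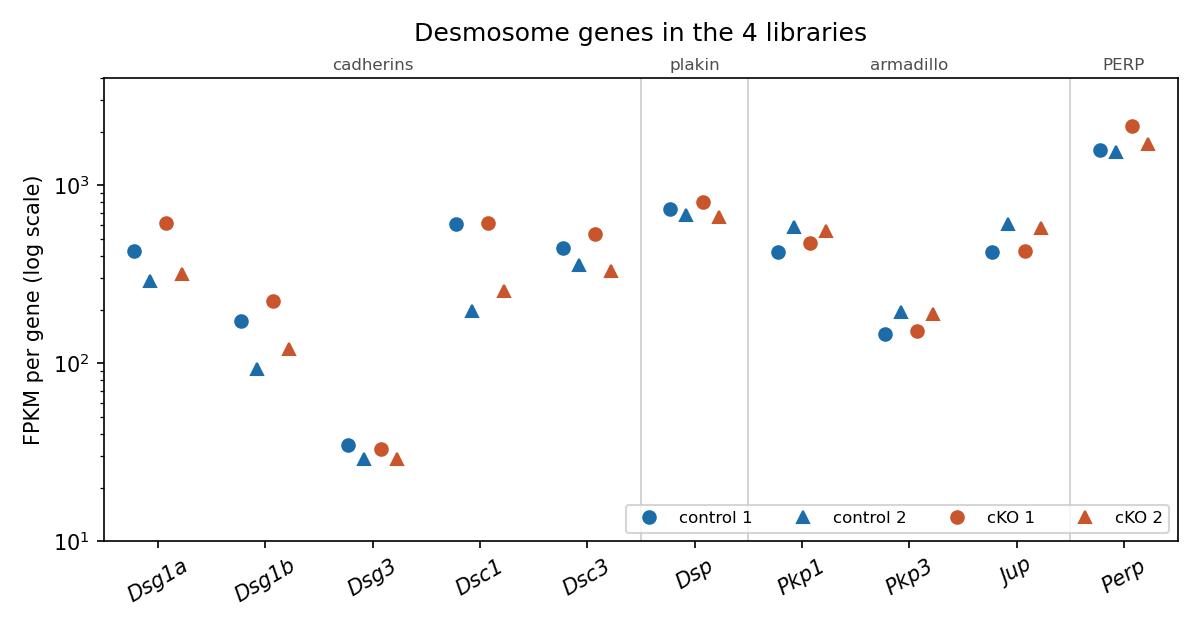
FPKM per gene on a log scale for the 10 desmosome genes, with 1 point per library (blue control, orange cKO, circles number 1, triangles number 2). Perp lies at the top, at 1546 to 2145 FPKM, and Dsg3 lies below the other 9, at 28.9 to 34.8 FPKM.

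By mean over the 4 libraries Perp was the 24th most abundant of all symbols and Dsp the 91st, and each lay apart from every other member. Pkp1 (mean 508.7 FPKM), Jup (507.9), Dsc1 (417.1), Dsc3 (416.9) and Dsg1a (412.2) followed, and their ranges overlapped. Pkp3 (170.5) and Dsg1b (152.1) came next, overlapping with each other, and the highest Dsg1b library also reached into the range of Dsc1. Dsg3 (31.4) lay under all others in every library.

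The cadherin genes of the upper layers come first. Dsg1a and Dsg1b encode copies of desmoglein 1, the target of pemphigus foliaceus antibodies in humans, and lie side by side on chromosome 18 of GRCm38 (20310811 to 20343350 and 20376729 to 20410196, plus strand). Dsg1a measured 428 FPKM in control 1 and 289.8 in control 2, and 615 FPKM in cKO 1 and 315 in cKO 2. Further pairs of values keep this order of library numbers. Dsg1b measured 172 and 92.6 FPKM in control and 223 and 121 FPKM in cKO. For both copies the cKO library was above the control library of the same number, but the genotypes overlapped because cKO 2 lay below control 1. The log2 difference was 0.32 ± 0.44 (SE) for Dsg1a and 0.38 ± 0.43 for Dsg1b, with 95% intervals of -0.77 to 1.41 and -0.69 to 1.45 (adjusted p = 0.959 for both, limma). Without cKO replicate 1 these differences turned to -0.16 and -0.06, and without control replicate 2 that of Dsg1b turned to -0.06. Such a fit, here and below, sets both library numbers against a single number, so differences between the numbers enter it.

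Reads of the desmoglein 1 copies may be split between them. Of all stretches of 100 bases in the Dsg1b transcript, 31.6% occurred unchanged in that of Dsg1a, and 21.9% of those in Dsg1a occurred in Dsg1b. The third copy, Dsg1c, was near absent, at 0.17 and 0.15 FPKM in control and 0.33 and 0.39 FPKM in cKO. With the 3 copies summed the log2 difference was 0.34, between the values of both abundant copies. Dsg1a stayed 2.50 to 3.13 times as abundant as Dsg1b.

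Dsc1 encodes desmocollin 1, the partner of desmoglein 1 in the upper layers (chromosome 18, 20084184 to 20114871, minus strand). Dsc1 measured 607 and 196 FPKM in control and 611 and 254 FPKM in cKO. The libraries numbered 1 were nearly equal, and in those numbered 2 the cKO value was the higher. The log2 difference was 0.19 ± 0.67, and its 95% interval of -1.47 to 1.85 was the widest of the 10 genes. Without control replicate 2 the difference turned to -0.62 and without cKO replicate 1 to -0.44. Without control replicate 1 it was 1.00 and without cKO replicate 2 it was 0.82.

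Dsg3 and Dsc3 stand for the lower layers. Dsg3, the desmoglein targeted in pemphigus vulgaris (chromosome 18, 20510274 to 20547459, plus strand), measured 34.8 and 28.9 FPKM in control and 32.9 and 29.1 FPKM in cKO. Its difference of -0.04 ± 0.21 had the narrowest interval of the members, -0.56 to 0.49 on the log2 scale, or 0.68 to 1.41 as a fold. Dsc3 (chromosome 18, 19960930 to 20002351, minus strand) measured 444 and 358 FPKM in control and 535 and 331 FPKM in cKO. Its difference was 0.08 ± 0.37, positive within number 1 (0.27) and negative within number 2 (-0.11). Without cKO replicate 1 it turned to -0.27 and without control replicate 2 to -0.08. In every library, desmocollin 3 RNA was more abundant than desmoglein 3 RNA.

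The balance of upper-layer over lower-layer cadherins can be read as a ratio of FPKM, which does not depend on the scaling of a library. Dsg1a plus Dsg1b over Dsg3 was 17.2 and 13.3 in control and 25.5 and 15 in cKO. Dsc1 over Dsc3 was 1.37 and 0.548 in control and 1.14 and 0.766 in cKO. Neither ratio separated the genotypes, and both were higher in the libraries numbered 1. Within each number the desmoglein ratio was higher in cKO. The desmocollin ratio was lower in cKO within number 1 and higher within number 2. The ratio of the suprabasal keratin Krt10 to the basal keratins Krt5 and Krt14 was also higher in both libraries numbered 1. The control libraries had keratin ratios of 4.99 and 1.39, and the cKO libraries 6.27 and 1.97, so cKO was the higher within each number. Krt10 does not stand for all suprabasal markers. Of the 5 tested, 3 lay lower in both libraries numbered 2 and 1 lay higher, against 24.6% and 32.8% of all genes. The part of the keratin ratio in the cadherin values was not tested. In bulk RNA, fewer cells of a layer and less RNA per cell cannot be told apart.

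**Figure D2:**
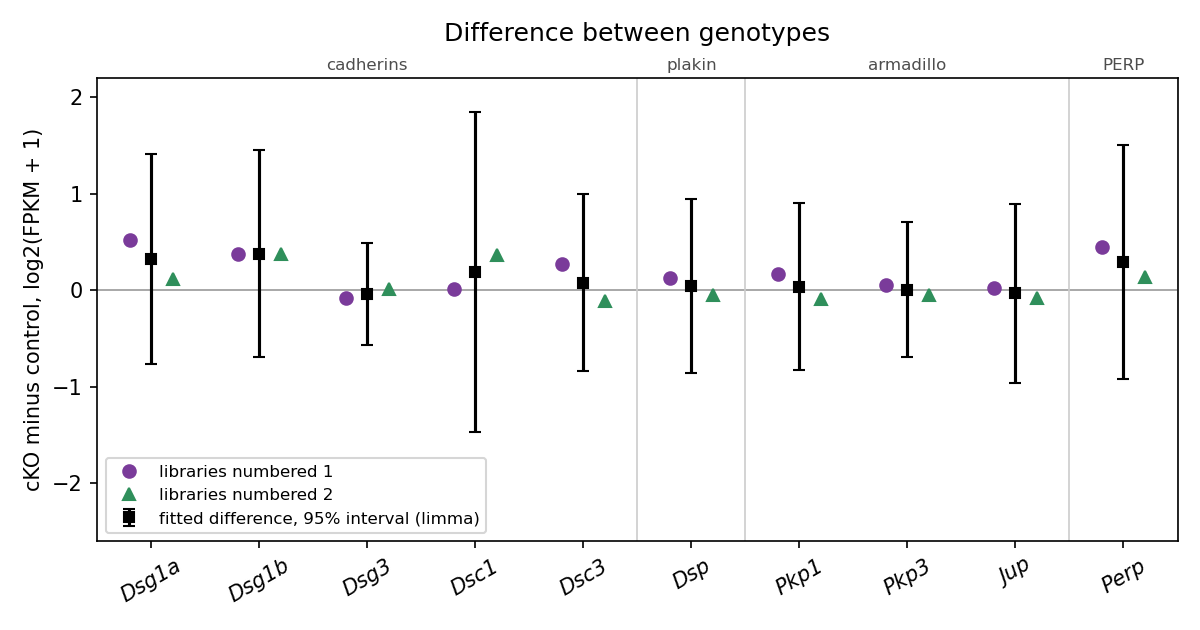
Log2 difference, cKO minus control, of each desmosome gene. Squares with bars show the fitted difference and its 95% interval from limma, and circles and triangles the difference within the libraries numbered 1 and 2. Every interval includes 0.

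Perp, at chromosome 10, 18845020 to 18857073, was the only member whose cKO libraries both lay above both control libraries. Perp measured 1568 and 1546 FPKM in control and 2145 and 1701 FPKM in cKO. Such a separation was found for 1 of 10 members and for 16.2% of all genes tested, and the opposite separation for 0 of 10 members and 16.6% of all genes, so the count is near the background. The log2 difference was 0.30 ± 0.49 with an interval of -0.91 to 1.505 (adjusted p = 0.962, limma). Leaving out any 1 library gave 0.13 to 0.46. When all columns were brought to the same sum the control and cKO values overlapped, with 3104 and 2528 in control against 4053 and 2693 in cKO on that scale.

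Across the members, 4 of 10 were higher in cKO within both library numbers (Dsg1a, Dsg1b, Dsc1 and Perp), against 31.8% of all genes. None was lower within both, against 37.6% of all genes. Under median-ratio scaling 3 were higher within both, without Dsc1, against 30% of all genes, and 2 lower, against 39.9%. Under equal column sums 3 were higher, again without Dsc1, against 26.8%, and 3 lower, against 44.2%. The 10 genes summed to 4983 and 4581 FPKM in control and to 6026 and 4727 FPKM in cKO.

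The armadillo proteins of the plaque gave flat differences between genotypes. Jup encodes plakoglobin, which links cadherin tails to desmoplakin and also occurs in adherens junctions (chromosome 11, 100368958 to 100397763). Jup measured 422 and 608 FPKM in control and 427 and 576 FPKM in cKO, a log2 difference of -0.03 ± 0.37. Pkp1 encodes plakophilin 1, whose loss in humans causes skin fragility (chromosome 1, 135871395 to 135919207). Pkp1 measured 424 and 585 FPKM in control and 475 and 551 FPKM in cKO, a difference of 0.04 ± 0.35. Pkp3, the plakophilin found in all living layers (chromosome 7, 141078218 to 141090510), measured 146 and 195 FPKM in control and 152 and 189 FPKM in cKO, a difference of 0.004 ± 0.28. For each of these genes both libraries numbered 2 lay above both numbered 1, while genotypes of the same number were close. Pkp1 was 2.90 to 3.12 times as abundant as Pkp3 in every library. The 95% interval of the fold was 0.52 to 1.86 for Jup, 0.56 to 1.87 for Pkp1 and 0.62 to 1.63 for Pkp3, so a 2-fold rise lay outside each interval.

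Dsp encodes desmoplakin (chromosome 13, 38151294 to 38198577, plus strand). Dsp measured 738 and 682 FPKM in control and 809.7 and 660.1 FPKM in cKO. The difference was 0.04 ± 0.37, with a fold interval of 0.55 to 1.93. Nearly all of it came from a pair of coding transcripts that end exon 23 at different splice donors, 1797 bases apart. Dsp-201 keeps 2295 bases of that exon, which encode part of the long rod of desmoplakin I, and Dsp-202 keeps the first 498, which gives the shorter desmoplakin II type. The junctions are shown because they tell the forms apart. Lower case marks the last 30 bases of exon 23 and capitals the first 30 of exon 24, which both forms share, read 5′ to 3′ from the GENCODE M21 transcripts (GRCm38).
Dsp-201: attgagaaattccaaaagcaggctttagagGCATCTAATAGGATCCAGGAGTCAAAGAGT
Dsp-202: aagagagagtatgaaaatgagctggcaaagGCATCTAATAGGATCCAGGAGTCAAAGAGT
Exon 23 ends at position 38193655 in Dsp-201 and at 38191858 in Dsp-202, and exon 24 starts at 38194696 in both.

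The shorter desmoplakin form was the less abundant in every library. Dsp-201 measured 546 and 454 FPKM in control and 543 and 415 FPKM in cKO. Dsp-202 measured 187 and 225 FPKM in control and 262 and 239 FPKM in cKO, so both cKO libraries lay above both control libraries. The ratio of Dsp-202 to Dsp-201 was 0.343 and 0.496 in control and 0.483 and 0.576 in cKO. Within each number the ratio was higher in cKO, but the genotypes overlapped, since control 2 exceeded cKO 1. In a limma fit over 27201 transcripts, added after the data were examined, Dsp-202 had a log2 difference of 0.28 ± 0.30 (adjusted p = 1). Dsp-203, a short non-coding form, measured 5 and 2.62 FPKM in control and 5.04 and 6.01 FPKM in cKO.

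Jup gave the member transcript with the clearest separation of genotypes. Jup-201 and Jup-202 have the same coding parts and differ mainly at the 3′ end, where Jup-201 has a further exon of 831 bases that lies wholly in the UTR and that Jup-202 lacks. Jup-202 measured 61.7 and 68.6 FPKM in control and 33.5 and 36.1 FPKM in cKO, and the cKO values were lower within each number. Jup-201 measured 247 and 412 FPKM in control and 299 and 419 FPKM in cKO, with overlapping genotypes, and Jup-209, a non-coding form, 65.9 and 101 FPKM against 62.7 and 92.6 FPKM. Jup-202 was 0.250 and 0.166 of Jup-201 in control and 0.112 and 0.086 in cKO. These ratios did not overlap between genotypes, and scaling of a library does not move them. They rest on the same Jup-202 values, so they are no separate support, and no share over other transcript pairs is given. For Jup-202 the log2 difference of -0.89 ± 0.24 had an unadjusted p of 0.00814 in limma and did not pass after adjustment over all transcripts (adjusted p = 0.976).

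Of the 32 transcript rows of the members 27 were tested, 0 were called, as were 0% of all transcripts, and 2 had an unadjusted p under 0.05, as did 1140 of all 27201. Besides Jup-202 the other was a retained-intron form of Pkp3, named after its values were seen, at 7.11 and 9.36 FPKM in control and 3.22 and 4.03 FPKM in cKO. Both cKO libraries lay below both control libraries for 3 of 27 member transcripts, against 16.2% of all transcripts, and above them for 3, against 14.1%. These shares lie near the background. Values of transcripts that share most of their exons are estimates, and how the reads were divided between them is not given in the sources used here. Pkp1 came almost wholly from 1 transcript (94.4% to 97.0% of the gene). Pkp3 was spread over 3 main rows, each with 21.9% to 34.6%, and one of these is not in the annotation used. The other 6 members each had a single transcript row.

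**Figure D3:**
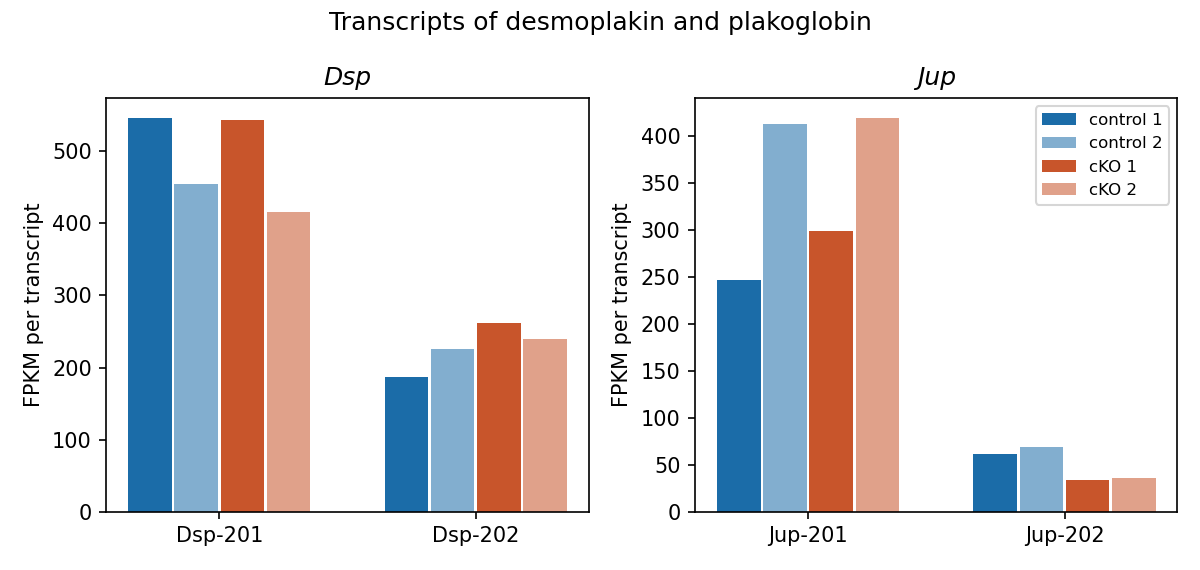
FPKM of the main coding transcripts of Dsp and Jup, with 1 bar per library (blue control, orange cKO, darker bars number 1). Jup-202 is lower in both cKO libraries (33.5 and 36.1) than in both control libraries (61.7 and 68.6). Dsp-202 is higher in both cKO libraries (262 and 239) than in both control libraries (187 and 225), and Dsp-201 and Jup-201 overlap between genotypes.

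Between the replicate libraries of a genotype the members did not all differ in the same direction. All 5 member cadherins and Dsp lay lower in both libraries numbered 2 than in both numbered 1. This held for 6 of 10 members and for 24.6% of all genes tested. All 3 armadillo members lay higher in both libraries numbered 2, which held for 3 of 10 members and for 32.8% of all genes. Dsg2 and Dsg4, desmosomal cadherins outside the members, also lay higher in both libraries numbered 2. Library 2 minus library 1 was -1.62 and -1.27 for Dsc1 on the log2 scale, in control and cKO, and -0.88 and -0.88 for Dsg1b. The same difference was 0.53 and 0.43 for Jup and 0.41 and 0.31 for Pkp3. Armadillo over cadherin FPKM was 0.588 in control 1 and 1.44 in control 2. In cKO 1 it was 0.523 and in cKO 2 it was 1.25, and this ratio is free of scaling. With equal column sums, which moved the median of all genes between the numbers from 0.07 to -0.18 in control and from 0.085 to -0.145 in cKO, Pkp1 no longer separated the numbers (0.19 in control and -0.04 in cKO), and Perp joined the genes that were lower in number 2. The members higher in number 2 then numbered 2, against 14.6% of all genes, and those lower 7, against 41.1%. Depth, the Krt10 ratio and the number moved together here, and their parts in these values were not tested.

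**Figure D4:**
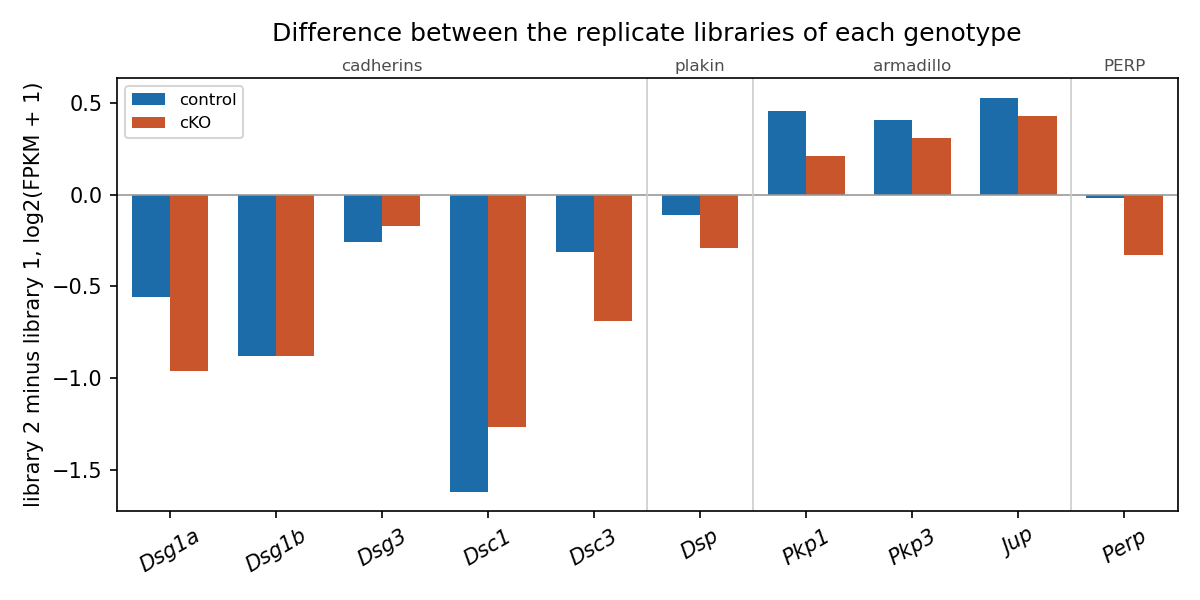
Library 2 minus library 1 within each genotype, in log2(FPKM + 1), for each desmosome gene (blue control, orange cKO). The cadherins and Dsp are below 0, as is Perp, and Jup, Pkp1 and Pkp3 are above 0 in both genotypes.

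Of the remaining desmosome genes, those known from other tissues were low and Cdsn was above Dsg3 in every library. Dsg2, the desmoglein of simple epithelia and heart, measured 3.79 and 4.77 FPKM in control and 3.98 and 4.2 FPKM in cKO. Dsc2, its usual partner, measured 5.02 and 4.59 FPKM in control and 6.82 and 5.62 FPKM in cKO. Pkp2, the heart plakophilin, measured 0.82 and 1.74 FPKM in control and 0.90 and 1.22 FPKM in cKO. All 3 lay below every member in every library. Dsg4, a desmoglein of the hair shaft, measured 1.21 and 2.83 FPKM in control and 1.80 and 3.29 FPKM in cKO. Pkp4, a relative of the plakophilins found at several junctions, measured 24.5 and 28.3 FPKM in control and 17.9 and 27.2 FPKM in cKO. Cdsn, which encodes corneodesmosin, the protein that covers desmosomes as cells cornify, measured 94.2 and 47.0 FPKM in control and 92.2 and 55.6 FPKM in cKO. Cdsn lay lower in both libraries numbered 2, as did the cadherin members, Dsp and 24.6% of all genes tested. Dsg2, Dsg4, Pkp2 and Pkp4 lay higher in both libraries numbered 2, as did 32.8% of all genes. Of these 7 genes 6 were tested and 0 were called in the fit that leaves out the library number, with a median difference of 0.03.

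Neighbouring structures were read from lists of the same kind, and 0 genes were called in each in the fit that leaves out the library number. The 10 adherens junction genes had a median log2 difference of 0.00, with 4 higher and 5 lower in cKO within both numbers. Over all genes these shares were 31.8% and 37.6%, which also apply to the lists that follow. Ctnnb1, β-catenin, measured 352 and 378 FPKM in control and 340.3 and 357 FPKM in cKO, and Cdh1, E-cadherin, 177 and 164 FPKM against 174 and 185 FPKM. The 6 plakins and keratin linkers had a median of -0.18, with 1 higher and 4 lower. Among them Ppl, periplakin, measured 204 and 177 FPKM in control and 208 and 174 FPKM in cKO. Pof1b, which encodes an actin-binding protein, measured 183 and 132 FPKM against 170.0 and 101 FPKM.

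The keratins that desmosomes anchor had a median of -0.24 over the 6 tested, with 1 higher and 3 lower within both numbers. Krt10 measured 15342 and 5382 FPKM in control and 12142 and 6217 FPKM in cKO, and Krt14 measured 2176 and 2549.5 FPKM against 1435 and 2195 FPKM. Both basal keratin genes of the Krt10 ratio, Krt5 and Krt14, were lower in cKO within each number. Krt1 was listed at 0 in every library, and whether its RNA was truly absent was not tested. Of 7 listed genes for proteases of the corneodesmosome, a protease inhibitor and galectin 7, 6 were in the table and 5 were tested, with a median of -0.01. Lgals7, which encodes galectin 7, a sugar-binding protein, measured 1184 and 1545 FPKM in control and 1699 and 1899 FPKM in cKO, and the protease gene Klk7 399 and 187 FPKM against 398 and 218 FPKM.

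Regulators of desmosomes and of epidermal differentiation had a median log2 difference of 0.13. Of the 10 genes, 7 were higher within both numbers and 2 lower, against 31.8% and 37.6% of all genes. For 5 both cKO libraries lay above both control libraries, against 16.2% of all genes, and for 1 below, against 16.6%. Klf4, a factor of terminal differentiation, measured 109 and 136 FPKM in control and 185 and 172 FPKM in cKO. Grhl1, a grainyhead-like factor that binds desmosomal cadherin genes, measured 122 and 113 FPKM against 145 and 123 FPKM. Trp63, known to drive Perp in the epidermis, was named after its values were seen. It measured 99.6 and 109 FPKM in control and 76.3 and 76.8 FPKM in cKO, and its part in the Perp values was not tested. None of the 10 regulators passed limma's adjusted test in the fit that leaves out the library number. With the number in the fit 900 of all genes were called, and its outcome for this list and the neighbouring lists is not given.

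The letters GGACT, the commonest form of the m6A motif, were counted on the sense strand of each main transcript as a description of sequence and not of methylation. Every member held at least 1, as did 90.7% of 11705 tested genes with a coding main transcript. Dsg1a held 0.176 and Dsg1b 0.252 per kilobase, below the lower quartile of all these genes (0.626). Dsp (0.521) and Perp (0.512) were also below that quartile. Pkp1 (1.29), Jup (1.25) and Dsc1 (1.06) lay at or above the median of 1.06, and no member exceeded the upper quartile of 1.55. Main transcripts of the members had 13 to 24 exons apart from Perp, which had 3, against a median of 9.

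Over the 4 libraries, the pattern nearest to the mean of the members was found in Wdr75, Atp6v1c2, Scamp1, Pdik1l and Man1a2 among 6670 protein-coding genes with a mean of at least 10 FPKM. Likeness was the Euclidean distance between centred log2(FPKM + 1) values, which was 0.03 to 0.05 for these genes. With 4 points many genes lie close by, and the members themselves lay at 0.13 (Dsp) to 1.17 (Dsc1) from their own mean.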

How the data were processed

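The authors deposited 1 table of 110295 transcripts, with no unit named. How the authors scaled the deposited values is not given in the sources used here, and they were read as FPKM, since length-weighted sums (length in kilobases) came to 1015550 to 1021998 per library. FPKM and RPKM cannot be told apart. Per the submitters' processing notes, fastp, HISAT2, HTSeq and GRCm38 were used. Control columns are named WT and were matched by group and number. Symbols turned into dates (162 rows) were looked up by transcript ID in GENCODE M21, which held 98.04% of transcripts. Low values gave whole reads in 94.3% to 95.2% of cases (tolerance 0.2 reads), which gave the depths.

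FPKM were summed per symbol. Genes that reached 1 FPKM in 2 or more libraries were fitted with limma 3.58.1 (R 4.3.3) on log2(FPKM + 1), a scale that understates changes of low genes, with mean-variance trend and genotype only, at an adjusted p of 0.05. Python 3.11.15, pandas 2.3.3, numpy 2.4.6 and matplotlib 3.10.9 were used. Older symbols (Pvrl1, Pvrl4, Mllt4) were matched through RefSeq synonyms, and 1 listed gene, Ctsv, was not matched. Members, lists and tests were chosen with earlier results of these data known. Named were all members, their 3 main transcripts at a mean of at least 1 FPKM, the other desmosome genes, the 2 most abundant genes of each further list, Mettl14, and the 5 nearest patterns. Alternatives covered scaling, pseudocount, filters, transcripts, limma-voom on the reads recovered, a replicate block and leaving out each library.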

Additional observations from a re-analysis of the deposited data

How the results depend on the processing

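No member was called under any alternative that was run, and the count of all genes called stayed at 0 except with the replicate number as a replicate block (900 genes) and without a single library (9 to 71 genes). With the replicate block 0 of 10 members passed, the smallest adjusted p being 0.0707 (Dsg1b). Deviations of same-numbered libraries from their group means correlated across genes at r = 0.722, but the labels give no shared origin for a number. The median of the members lay between 0.003 and 0.115, and between -0.083 and 0.306 without a single library. Such a fit leaves 1 library in a group, which is assumed to vary like the other group. It also sets both library numbers against a single number, so differences between the numbers enter the genotype difference. Differences near 0 changed sign: Pkp3 to -0.016 with median-ratio scaling, Pkp3 to -0.052, Dsp to -0.015 and Pkp1 to -0.018 with equal column sums, Pkp3 to -0.022 and Jup to 0.015 with limma-voom. The reads behind limma-voom and the protein_coding setting leave out 1 of the 3 main Pkp3 transcripts, which is not in the annotation used. With the most abundant transcript only, Dsp became -0.069, Pkp3 -0.033 and Jup 0.151, and with protein_coding transcripts only Jup became 0.016. Leaving out each library gave ranges of -0.159 to 0.803 for Dsg1a, -0.062 to 0.820 for Dsg1b, -0.167 to 0.096 for Dsg3, -0.622 to 1.001 for Dsc1 and -0.266 to 0.423 for Dsc3. The ranges were -0.105 to 0.190 for Dsp, -0.193 to 0.271 for Pkp1, -0.200 to 0.209 for Pkp3 and -0.295 to 0.233 for Jup. Perp kept its sign in every setting. Apart from this mixing of numbers in the fits without a library, the cause of these changes was not tested. At least 3450 reads stood behind each member in each library, and each group had 2 libraries.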
